A study of Oryza sativa with 8 samples.

Results

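This account covers 4 rice genes of membrane lipid turnover in roots: the galactolipid synthase genes MGD2 and MGD3 and the phospholipase D genes PLD1 and PLD2. They were taken as every probe set whose platform gene symbol, RefSeq rice symbol or synonym carries one of these names, which gave 4 probe sets of 4 genes among 57194 probe sets that are not controls, or 17905 genes. The rule itself uses names and no measured value, but the genes were proposed with earlier results of these data known. Each gene was read by 1 probe set, so no gene has a second reading on these arrays.

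Root RNA came from the indica cultivar IR64 grown in pots in a greenhouse, with 2 biological replicate arrays in each of 4 groups. The groups were transgenic plants (T) in which the constitutive 35S promoter drives OsPSTOL1 in P-deficient soil, null segregants without it (NT) in P-deficient soil, T plants in P-fertilised soil and NT plants in P-fertilised soil. Sampling was at heading where soil was P-deficient and at mid-tillering where it was fertilised, so every difference between soils given here is also one between growth stages, and these cannot be told apart. The number of transgenic lines and of plants behind an array is not given in the sources used here, and p-values measure the spread between these arrays.

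Plant membranes hold phospholipids, which carry phosphate, and galactolipids, which carry sugar in its place. Monogalactosyldiacylglycerol synthases, the enzymes of the MGD genes, add galactose to diacylglycerol and so start galactolipid synthesis. Phospholipase D cuts the head group from a phospholipid and leaves phosphatidic acid, which can be turned into diacylglycerol with release of phosphate. In Arabidopsis, plants short of phosphate replace part of their phospholipids with galactolipids, and its MGD2 and MGD3 genes are known for their induction in that state. The rice genes share these names, but a shared name does not show a shared role.

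The deposited values are intensities on a linear scale, called signals here. Summed signals per array ran from 8060018 to 8802152. The 3-prime to 5-prime ratio of the GAPDH control probe sets, a sign of RNA integrity, stood at 198 and 3.05 for T roots under P deficiency, beside 1.15 and 1.21 for NT roots there. With P fertiliser it stood at 2.16 and 1.55 for T roots, beside 1.61 and 1.94 for NT roots. Of 10 listed root markers, 6 had a probe set, none of them at 0. Their summed signal under P deficiency was 2308 to 2629 for T roots and 2137 to 3011 for NT roots. With P fertiliser it was 6427 to 6732 for T roots and 6624 to 6933 for NT roots. In limma, which fits a linear model to each probe set on the log2 scale, 4 of these 6 were lower in P-deficient soil, beside 24.8% of all probe sets. The 5 measured green tissue markers of 11 listed summed to 186 to 196 for T roots and 149 to 321 for NT roots under P deficiency. With P fertiliser they summed to 266 to 951 for T roots and 142 to 174 for NT roots, and none was at 0 in any group. The 951 came from T replicate 2, where CAB2R read 397.3 and PETE 367.7, both named after their values were seen. The 5 flower markers summed to 935 to 991 for T roots and 697 to 899 for NT roots under P deficiency, and to 416 to 545 for T roots and 433 to 455 for NT roots with P fertiliser, again with none at 0. Of the 4 flower markers kept by the filter on low signals, which left out the 40% of probe sets with the lowest mean, 1 was higher in P-deficient soil, beside 22.3% of all probe sets. That 1 was MADS16, named after its values were seen. It averaged 755 ± 114 in P-deficient soil, against 339 ± 49.6 in P-fertilised soil (SD, n = 4 arrays each), and made up most of the flower sums. The part of the marker shifts in the results was not tested.

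The signals of all 4 genes were higher in P-deficient soil than in P-fertilised soil, and on none of the 4 did the arrays of the soils overlap. MGD2 rose most, to 209 ± 48.2 in P-deficient soil, against 46.3 ± 19.7 in P-fertilised soil (SD, n = 4 arrays each), a ratio of 4.51. PLD1 rose 1.66-fold, MGD3 1.41-fold and PLD2 1.40-fold. In limma all 4 passed at a Benjamini-Hochberg adjusted p under 0.05 over 34316 probe sets. That count stands against 22.3% of all probe sets called higher in P-deficient soil, and 20.8% of probe sets had all 4 P-deficient arrays above all 4 P-fertilised arrays. In bulk roots, more cells of a type and more RNA per cell cannot be told apart.

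**Figure D1:**
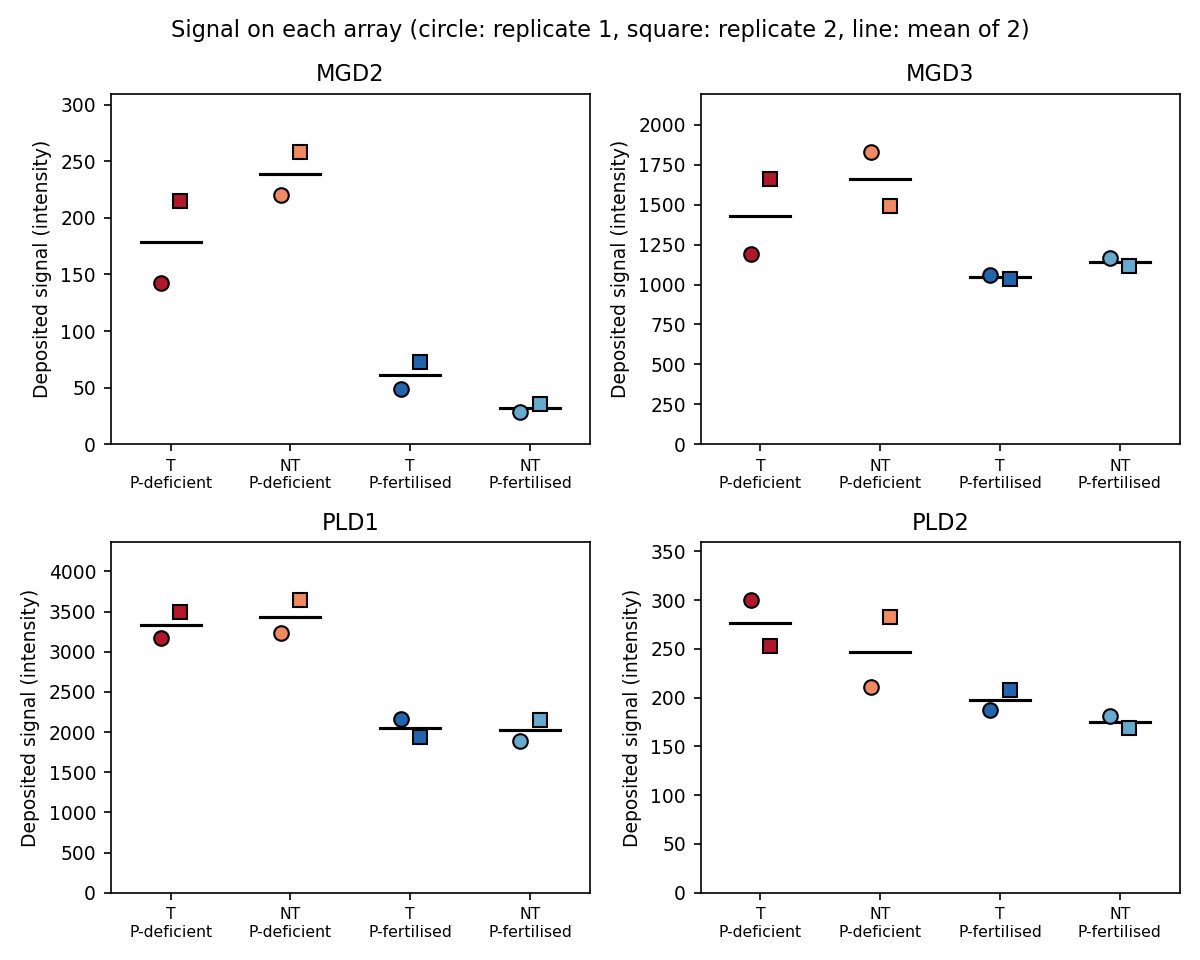
Deposited signal (intensity) of MGD2, MGD3, PLD1 and PLD2 on each of the 8 arrays, grouped by genotype and soil, with replicate 1 as a circle, replicate 2 as a square and the mean of 2 arrays as a line. In every panel the 4 P-deficient arrays lie above the 4 P-fertilised arrays, by the largest ratio for MGD2 (142.6 or more against 72.9 or less).

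MGD2 (LOC4345212) codes for a galactolipid synthase. Under P deficiency its signal was 142.6 and 214.5 for T roots, beside 219.9 and 258.1 for NT roots. With P fertiliser its signal was 48.7 and 72.9 for T roots, beside 28.1 and 35.4 for NT roots. The order of the groups was NT then T in P-deficient soil, followed by T and last NT in P-fertilised soil. Neighbours in that order did not overlap, but in P-deficient soil the edges were close, at 214.5 in T and 219.9 in NT. The T and NT neighbours within a soil did not differ past the threshold. With 2 arrays on each side a lack of overlap is a weak sign, and its share over all probe sets was not counted. On the log2(signal + 32) scale, which understates changes of low signals, MGD2 rose by 1.63 ± 0.15 (SE) in P-deficient soil over both genotypes (limma adjusted p = 5.35e-05). The rise was larger than that of 93.1% of all probe sets in absolute size. With a pseudocount of 1 it was 2.21 and with 100 it was 1.07, and it passed under each.

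Within each genotype MGD2 also passed. In T it averaged 179 ± 50.8 in P-deficient soil, against 60.8 ± 17.1 in P-fertilised soil (SD, n = 2 arrays each), a ratio of 2.94 and a log2 difference of 1.17 ± 0.22 (limma adjusted p = 0.00355). In NT it averaged 239 ± 27.0 in P-deficient soil, against 31.8 ± 5.16 in P-fertilised soil, a ratio of 7.53 and a log2 difference of 2.09 ± 0.22 (limma adjusted p = 0.000211). The NT signals with P fertiliser were low and may hold background, since no detection calls were used. Without T replicate 1 of P-deficient soil, the array with the GAPDH ratio of 198, the difference in T was 1.42.

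MGD3 (LOC4331045) codes for another galactolipid synthase of the same family. Under P deficiency it read 1192.7 and 1659.8 for T roots, beside 1830.2 and 1492.8 for NT roots. With P fertiliser it read 1057.7 and 1035.9 for T roots, beside 1167.1 and 1113.4 for NT roots. The soils lay close together at their edges, since T replicate 1 of P-deficient soil stood 1.02-fold above NT replicate 1 of P-fertilised soil. By means the order was NT and T in P-deficient soil, whose arrays overlapped, then NT and T in P-fertilised soil, whose arrays did not. The share of all probe sets without such overlap was not counted, and each side held 2 arrays. MGD3 rose by 0.47 ± 0.13 over both genotypes (limma adjusted p = 0.0169). Without T replicate 1 of P-deficient soil the rise was 0.59 (adjusted p = 0.00582). It missed the threshold with quantile normalization (0.35, adjusted p = 0.0534), and without replicate 1 (0.0503) or 2 (0.058) of T or replicate 2 of NT (0.0599) in P-fertilised soil.

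PLD1 (LOC4327647) codes for a phospholipase D of the alpha type. Its signal under P deficiency was 3167.5 and 3489.6 for T roots, beside 3228.8 and 3638.1 for NT roots. Its signal with P fertiliser was 2159.7 and 1943.6 for T roots, beside 1894.6 and 2151.8 for NT roots. The lowest P-deficient array lay 1.47-fold above the highest P-fertilised array, and within each soil the T and NT arrays overlapped. By means the order was NT and T in P-deficient soil, then T and NT with P fertiliser. PLD1 averaged 3381 ± 221 in P-deficient soil, against 2037 ± 138 in P-fertilised soil (SD, n = 4 arrays each), a rise of 0.72 ± 0.10 (log2, SE, limma adjusted p = 0.00037). The rise was 0.69 ± 0.14 in T (adjusted p = 0.00474) and 0.75 ± 0.14 in NT (adjusted p = 0.00345).

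PLD2 (LOC4341469) codes for a second phospholipase D of the alpha type. It read 299.6 and 252.7 for T roots under P deficiency, beside 211.1 and 282.4 for NT roots. It read 187.3 and 208 for T roots with P fertiliser, beside 180.7 and 168.6 for NT roots. NT replicate 1 of P-deficient soil was thus 1.01-fold above T replicate 2 of P-fertilised soil. The order of means was T and NT in P-deficient soil, which overlapped, then T and NT in P-fertilised soil, which did not. Here too each side held 2 arrays, and the share of all probe sets without such overlap was not counted. PLD2 rose by 0.42 ± 0.13 over both genotypes (limma adjusted p = 0.0259). It missed the threshold with the GAPDH ratio as a covariate (0.37, adjusted p = 0.0757). Under P deficiency, leaving out T replicate 1 (0.37, adjusted p = 0.0722) or NT replicate 2 (0.33, adjusted p = 0.0507) also ended the call, as did a fit without any 1 of the 4 arrays of P-fertilised soil, at adjusted p-values between 0.059 and 0.0921.

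**Figure D2:**
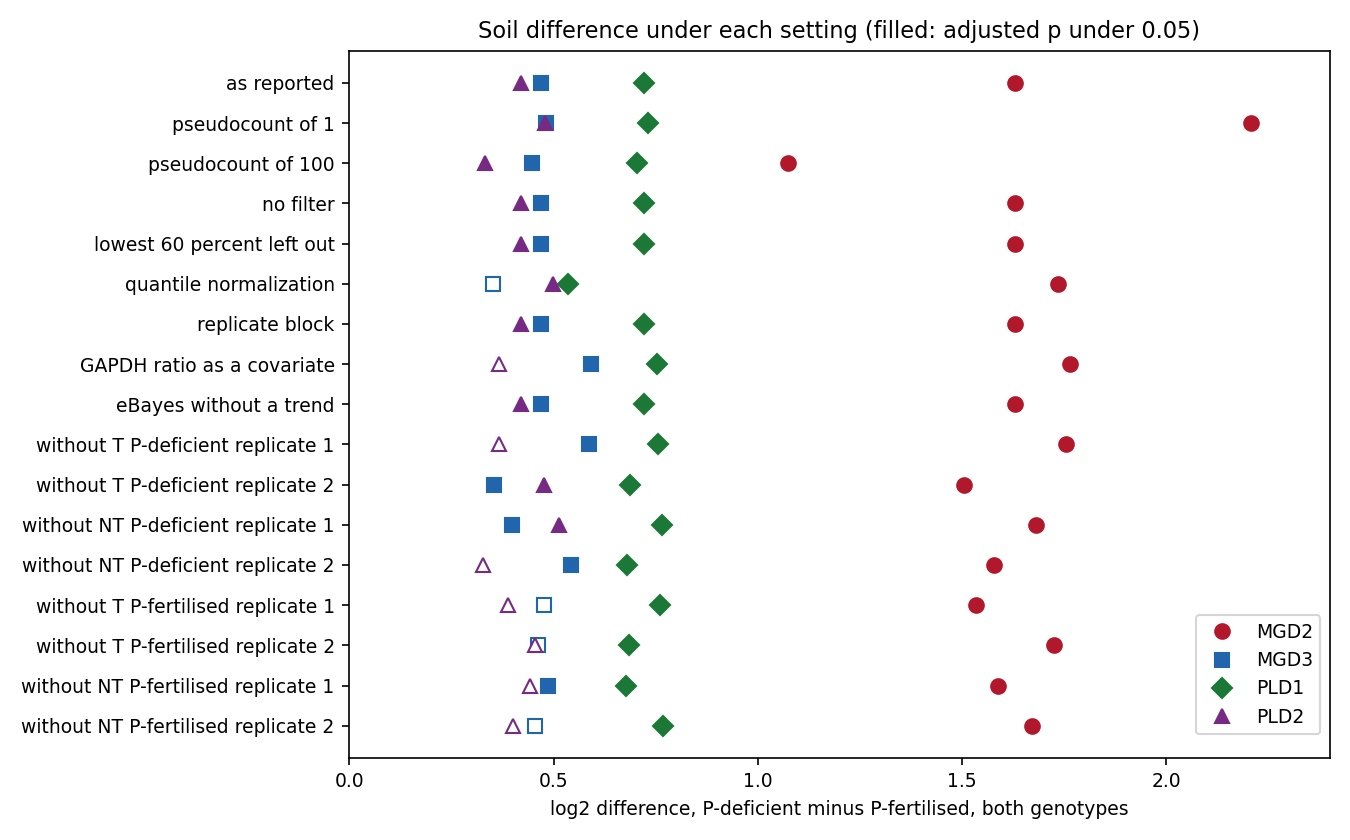
The log2 difference between P-deficient and P-fertilised soil over both genotypes (x axis) of each gene under each processing setting (rows), with filled symbols where the limma adjusted p was under 0.05. MGD2 and PLD1 are filled throughout the 16 alternatives, and MGD3 is open under 4 and PLD2 under 7 of them.

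Within 1 genotype, 2 of the 4 genes passed as higher in P-deficient soil, MGD2 and PLD1 in both T and NT, against 15.5% of all probe sets in T and 15.5% in NT. MGD3 differed by 0.42 ± 0.18 in T (limma adjusted p = 0.115) and by 0.52 ± 0.18 in NT (0.0597). The MGD3 value in T rested on single arrays of P-deficient soil: it was 0.65 without T replicate 1 (adjusted p = 0.0351) and 0.18 without T replicate 2 (adjusted p = 0.508). In NT, MGD3 stayed at 0.52 and passed when T replicate 1 (adjusted p = 0.0324) or T replicate 2 (0.033) under P deficiency was left out. Leaving out NT arrays of that soil gave 0.38 without replicate 1 (adjusted p = 0.196) and 0.67 without replicate 2 (0.0427). A GAPDH ratio covariate gave 0.48 in NT (adjusted p = 0.0464). The covariate put MGD3 in T at 0.71 (adjusted p = 0.0381) and quantile normalization at 0.26 (0.311). PLD2 differed by 0.42 ± 0.18 in each genotype (adjusted p = 0.107 in T and 0.113 in NT). In NT it was 0.61 without NT replicate 1 under P deficiency and passed (adjusted p = 0.0401), and it was 0.23 without NT replicate 2 (adjusted p = 0.359). MGD3 and PLD2 had no overlap between the soils in either genotype. With 2 arrays on each side this is a weak sign, and its share over all probe sets was not counted.

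**Figure D3:**
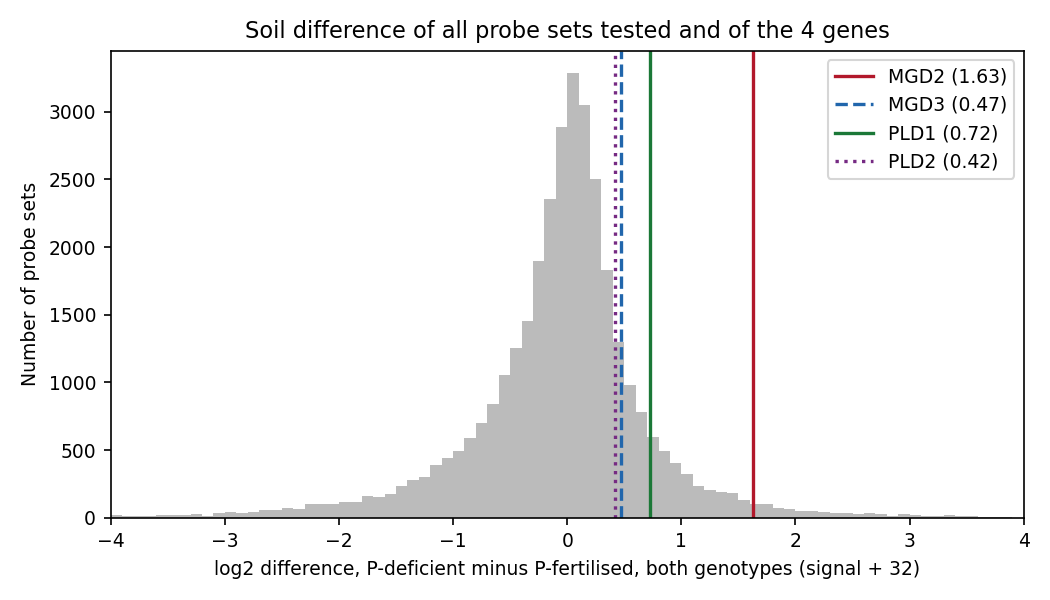
Histogram of the log2 difference between P-deficient and P-fertilised soil over both genotypes for 34316 probe sets (y axis, number of probe sets), with a vertical line for each gene. MGD2 lies at 1.63, PLD1 at 0.72, MGD3 at 0.47 and PLD2 at 0.42, and the probe sets beyond 4 either way are not drawn.

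In absolute size the rise of PLD1 was above that of 75.2% of probe sets, that of MGD3 above 61.6% and that of PLD2 above 57.8%. The unequal size of the rises was compared through the log2 ratio of 2 genes within each array, in 6 pairs, each with a two-sided exact permutation test of the 4 P-deficient against the 4 P-fertilised arrays. The ratio of MGD2 to MGD3 was higher in P-deficient soil by 1.16, that of MGD2 to PLD1 by 0.91 and that of MGD2 to PLD2 by 1.21. In each of these pairs the soils did not overlap, and the exact p was 0.0286 (0.0571 adjusted over 6 pairs), the lowest value possible with 4 arrays per soil. These sizes depend on the pseudocount: with 100 they were 0.63, 0.37 and 0.74 (adjusted p = 0.0857 each, exact test), and with 1 they were 1.73, 1.48 and 1.73. After adjustment at least 4 of the 6 pairs would have had to reach that p for any to pass. Among the pairs of MGD2 the soils lay closest for MGD2 to PLD1. There the lowest log2 ratio in P-deficient soil was -4.20 and the highest in P-fertilised soil -4.24. How often other gene pairs lack overlap between the soils was not counted. The ratio of MGD3 to PLD1 differed by -0.25 (exact p = 0.171, adjusted 0.206), that of PLD1 to PLD2 by 0.30 (exact p = 0.0857, adjusted 0.129) and that of MGD3 to PLD2 by 0.049 (exact p = 0.829, adjusted 0.829). With quantile normalization PLD1 to PLD2 differed by 0.039 and MGD3 to PLD2 by -0.15. Without T replicate 1 of P-deficient soil, MGD3 to PLD1 differed by -0.17 and MGD3 to PLD2 by 0.23.

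The comparison of T with NT asks whether constant expression of the OsPSTOL1 kinase changes these transcripts. None of the 4 genes passed in limma in P-deficient soil, where 0.108% of all probe sets passed in either direction, in P-fertilised soil (0.00291%) or over both soils (0.0321%). By unadjusted p, MGD2 in P-fertilised soil was the 1 case under 0.05, a level that 897 of 34316 probe sets reached there. In P-deficient soil its T arrays lay below its NT arrays by 0.38 ± 0.22 (log2, SE, unadjusted p = 0.116, limma adjusted p = 0.485). In P-fertilised soil its T arrays lay above its NT arrays by 0.53 ± 0.22 (unadjusted p = 0.0395, limma adjusted p = 1). The interaction of genotype and soil, the T minus NT difference in P-deficient soil minus that in P-fertilised soil, was -0.91 ± 0.31 for MGD2 (unadjusted p = 0.0173, limma adjusted p = 0.829). No probe set passed that test (0% of those tested), while 2032 of 34316 had an unadjusted p under 0.05, MGD2 among them. In that test 1.98% of probe sets had a smaller p than MGD2. Without T replicate 1 of P-deficient soil MGD2 differed by -0.13 between the genotypes in that soil (limma adjusted p = 0.924), and its interaction was -0.66. With the GAPDH ratio as a covariate the MGD2 difference in that soil was -0.0083 and the interaction -0.54. Within groups that ratio varied most between the T arrays of P-deficient soil, so these are not separate checks. In P-fertilised soil the MGD2 difference between T and NT was 0.90 with a pseudocount of 1 and 0.28 with 100.

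Under P deficiency MGD3 averaged 1426 ± 330 for T roots and 1662 ± 239 for NT roots (SD, n = 2 arrays each), a log2 difference of -0.23 with a 95% interval from -0.65 to 0.19. In P-fertilised soil it averaged 1047 ± 15.4 in T and 1140 ± 38.0 in NT, a difference of -0.12 with an interval from -0.54 to 0.30. Without T replicate 1 of P-deficient soil the MGD3 difference was 0.0057 in that soil and -0.057 over both soils, against -0.17 over both soils with all arrays. For PLD1 the T minus NT difference was -0.043 under P deficiency (interval -0.35 to 0.27) and 0.021 with P fertiliser (-0.29 to 0.33). For PLD2 it was 0.15 in both soils (-0.26 to 0.57 in each). Under P deficiency, leaving out T replicate 1 gave 0.026 for PLD1 and 0.042 for PLD2. Over both soils the intervals ran from -0.28 to 0.43 for MGD2, -0.47 to 0.12 for MGD3, -0.23 to 0.21 for PLD1 and -0.14 to 0.45 for PLD2, and changes inside these limits remain possible.

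**Figure D4:**
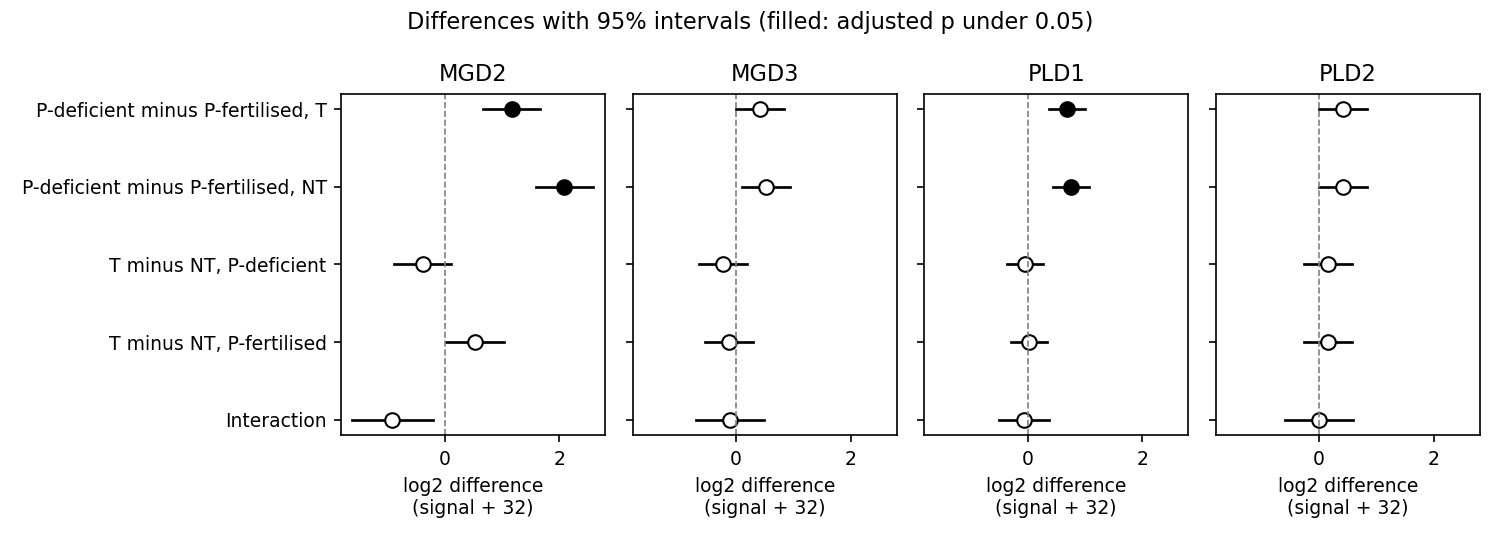
The log2 differences (signal + 32) of each gene between soils within T and NT, between T and NT within each soil, and the interaction, with 95% intervals from limma and filled points where the adjusted p was under 0.05. MGD2 and PLD1 have filled points for soil in both genotypes, and no comparison of T with NT is filled.

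Related genes were followed from lists of names. The first was MGD1 (LOC4347099), a further galactolipid synthase gene. MGD1 read 285.4 and 208.9 for T roots under P deficiency, beside 219 and 309.4 for NT roots. With P fertiliser MGD1 read 278.2 and 310 for T roots, beside 266 and 284.7 for NT roots. Its soils overlapped, and its difference of -0.15 ± 0.15 did not pass (limma adjusted p = 0.427).

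The list of other phospholipases held 3 genes, homologs of secreted phospholipase A2, which cuts a fatty acid from a phospholipid. All 3 fell in P-deficient soil in limma, with a median of -0.74 beside 0.0088 over all probe sets, and 24.8% of all probe sets were called lower. Named after their values were seen, they were PLA2-III, which averaged 70.7 ± 14.8 in P-deficient soil, against 582 ± 88.1 in P-fertilised soil (SD, n = 4 arrays each, log2 difference -2.58 ± 0.14), pla2-II (-0.74 ± 0.12) and pla2-I (-0.58 ± 0.13).

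Of 26 listed markers of phosphate sensing, uptake and starvation, 16 had a probe set and 15 were kept by the filter. In P-deficient soil 7 of the 15 were higher and 2 lower in limma, with a median of 0.78, beside 22.3% of all probe sets higher, 24.8% lower and a median of 0.0088. The 3 with the smallest p were PHO1-2, SPX3 and SPX5. SPX3 and SPX5 code for SPX proteins, a family of phosphate sensors. SPX3 averaged 446 ± 110 in P-deficient soil, against 22.0 ± 5.22 in P-fertilised soil, a log2 rise of 3.12 ± 0.18. SPX5 rose by 2.63 ± 0.16. PHO1-2, which loads phosphate into the xylem, fell by 2.57 ± 0.12.

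**Figure D5:**
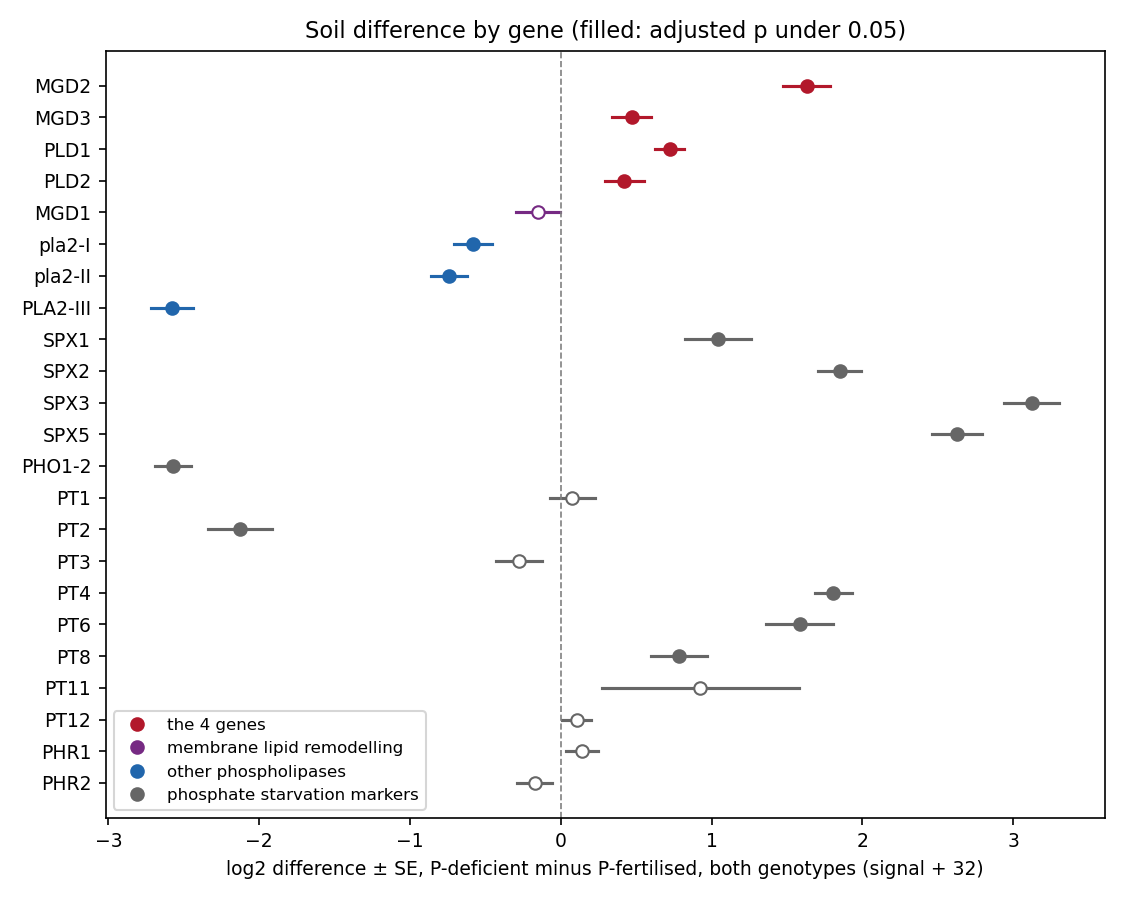
The log2 difference between P-deficient and P-fertilised soil over both genotypes, with its SE, for the 4 genes (red), MGD1 (purple), other phospholipases (blue) and phosphate markers (grey), filled where the limma adjusted p was under 0.05. MGD2 at 1.63 lies below SPX3 at 3.12 and above PLD1 at 0.72, and the 3 phospholipase A2 genes lie on the negative side.

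The genes with the most similar pattern were sought among 2302 genes with a literature name, as the root mean square difference of log2(signal + 32) values over the 8 arrays, each gene centred on its own mean. The measure is descriptive, since the arrays fall apart by soil and any gene with a like soil difference comes near. Nearest to MGD2 were HAK25, a potassium transporter gene (0.20), SBE1, for a starch branching enzyme (0.23), and SPP2, for a sucrose phosphatase (0.23). MGD2 itself deviated from its mean by 0.86 on this measure. Nearest to MGD3 were BGLU14, of the beta-glucosidase family (0.072), OSR8 (0.11) and NPR3, a relative of the defence regulator NPR1 (0.11), against 0.29 for MGD3 about its own mean. BGLU14 read low, at 29.3 ± 9.28 in P-deficient soil, against 11.8 ± 3.14 with P fertiliser, so its log2 change is strongly damped by the pseudocount.

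Nearest to PLD1 were VLN4, for an actin-binding villin (0.078), the cytochrome P450 gene CYP701A9 (0.080) and OsC3H44, of the CCCH zinc finger family (0.087), against 0.37 for PLD1 about its mean. VLN4 and CYP701A9 read low, at 25.1 ± 5.75 and 34.2 ± 6.91 in P-deficient soil and 3.88 ± 1.95 and 6.08 ± 2.02 in P-fertilised soil, so their log2 changes are strongly damped by the pseudocount. Nearest to PLD2 were LST8, a partner of the TOR kinase (0.067), OsC3H17, another CCCH zinc finger gene (0.079), and UMPS1, for uridine monophosphate synthase (0.082), against 0.25 for PLD2 about its mean.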

How the data were processed

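The authors deposited linear intensity values of 57381 probe sets for each of 8 arrays. The submitters' processing notes name GCOS, and its version, settings and detection calls were not used here. Array means after trimming 2 percent at each end were 100.01 to 100.02, which shows scaling before deposit. Scaling to a common mean makes each change relative to the whole array.

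From these, log2(value + 32) was computed. The 187 control probe sets and the 40 percent with the lowest mean were left out, which kept 34316 probe sets and all 4 genes. A model of 4 group means was run in limma 3.58.1 (R 4.3.3, trended eBayes, 4 residual degrees of freedom) with Benjamini-Hochberg adjustment over all probe sets and a threshold of 0.05. The number of arrays limits the precision. Exact permutation tests used scipy 1.17.1. Code was tested on simulated data.

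Names came from the platform annotation and a RefSeq table of assembly ASM3414082v1, used for names only. For genes with several probe sets on the lists, that with the highest mean was used. Named genes were all 4 genes, up to 6 of the lipid list and 3 of the phosphate list by smallest p, and the 3 most similar patterns per gene. The members and lists were chosen with earlier results of these data known, and the pair tests were added after the data were seen. Alternatives were pseudocounts of 1 and 100, no filter or 60 percent left out, quantile normalization and a replicate block. Others were the GAPDH ratio as a covariate, no trend, only the arrays compared, and each array left out. Within groups the GAPDH ratio varied most between the T arrays of P-deficient soil, so the fitted slope of that covariate rests mainly on them.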

Additional observations from a re-analysis of the deposited data

Results flagged for a closer look

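MGD2 was singled out because its genotypes lay in opposite order in the 2 soils. Both T arrays lay below both NT arrays in P-deficient soil (142.6 and 214.5 against 219.9 and 258.1). In P-fertilised soil both T arrays lay above both NT arrays (48.7 and 72.9 against 28.1 and 35.4). The share of all probe sets with such an order was not counted, and each group held only 2 arrays. The interaction was -0.91 ± 0.31 on the log2 scale (unadjusted p = 0.0173, limma adjusted p = 0.829), so it did not pass over all probe sets. In that limma test 2032 of 34316 probe sets had an unadjusted p under 0.05. Leaving out each array in turn gave MGD2 interactions from -1.16 to -0.66. The size also depends on the pseudocount, at -1.34 with 1 and -0.58 with 100. Under P deficiency the GAPDH ratio stood at 198 and 3.05 for T roots, beside 1.15 and 1.21 for NT roots. With that ratio as a covariate the interaction was -0.54, and without T replicate 1 of that soil it was -0.66. These are not separate checks, since within groups the ratio varied most between those T arrays.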

How the results depend on the processing

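The rises of MGD2 and PLD1 in P-deficient soil kept their direction and passed under all 16 alternatives over both genotypes, at 1.07 to 2.21 for MGD2 and 0.54 to 0.77 for PLD1. The rises of MGD3 (0.35 to 0.59) and PLD2 (0.33 to 0.51) kept their direction and missed the threshold under 4 and 7 of the 16. With 1 array left out, the rises over both genotypes ran from 1.51 to 1.75 for MGD2 and from 0.68 to 0.77 for PLD1. Those of MGD3 ran from 0.35 to 0.59 and those of PLD2 from 0.33 to 0.51. In several of these fits MGD3 or PLD2 missed the threshold, and the cause was not tested. Within 1 genotype MGD3 passed under 2 alternatives in T and 4 in NT, and PLD2 under 1 in NT. No gene passed between T and NT or in the interaction under any alternative tried.

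Differences between T and NT near 0 changed sign, none of them past the threshold, and the cause was not tested. Over both soils MGD2 was -0.0046 with a pseudocount of 100, and PLD1 was 0.084 with quantile normalization and 0.031 with the GAPDH covariate. In P-deficient soil the covariate gave 0.11 for MGD3 and 0.040 for PLD1, and quantile normalization gave 0.045 for PLD1. The interaction was 0.23 for MGD3, 0.019 for PLD1 and -0.15 for PLD2 with the covariate, and -0.0047 for PLD2 with a pseudocount of 1. The ratio of MGD3 to PLD2 differed by -0.15 between soils with quantile normalization. With 1 array left out, T minus NT over both soils ran from -0.049 to 0.20 for MGD2 and from -0.057 to 0.034 for PLD1. In P-deficient soil it ran from -0.46 to 0.0057 for MGD3, -0.13 to 0.042 for PLD1 and -0.033 to 0.34 for PLD2, and in P-fertilised soil from -0.070 to 0.11 for PLD1. The interaction ran from -0.34 to 0.13 for MGD3, -0.15 to 0.026 for PLD1 and -0.18 to 0.19 for PLD2, and the ratio of MGD3 to PLD2 from -0.12 to 0.23.

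The labels do not say whether the replicate numbers pair the arrays. Differences between replicates correlated at -0.26 to 0.21 between groups across probe sets, highest between T and NT with P fertiliser, which does not settle it. With the replicate block the rises stayed 1.63, 0.47, 0.72 and 0.42 for MGD2, MGD3, PLD1 and PLD2, and 4 genes passed (limma adjusted p = 5.54e-05, 0.0297, 0.000952 and 0.0407). No detection calls were used, so signals near 30, as of MGD2 for NT roots with P fertiliser (28.1 and 35.4), may hold background.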
